A study of Mus musculus with 16 samples.

Results

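The 39 mouse Hox genes of the 4 clusters were taken as every row of the count table whose symbol is Hox followed by a cluster letter and a number, 39 of 23100 genes in all. They fell into 11 Hoxa, 10 Hoxb, 9 Hoxc and 9 Hoxd genes. By paralog number, 12 were anterior (numbers 1 to 4), 11 central (5 to 8) and 16 posterior (9 to 13). Hox genes encode homeodomain transcription factors whose order along each chromosome follows their order of expression along the body axis, from anterior genes at the 3′ end of a cluster to posterior genes at the 5′ end. Genes of the same paralog number in different clusters are related by duplication and have overlapping roles, and they bind DNA together with TALE cofactors such as Pbx and Meis proteins. Fibroblasts in culture are known to keep a Hox pattern that reflects the body position they came from, and Polycomb and Trithorax complexes hold these genes off or on.

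RNA was sequenced from mouse embryonic fibroblasts, connective tissue cells grown from C57BL/6 embryos at stage E13.5, in DMEM with 10% FBS. There were 4 lines, 2 wildtype (Zac+/+) and 2 mutant (Zac+/-). Zac1 is now called Plagl1, a zinc finger transcription factor gene that is imprinted. Each line was harvested at day 2 in vitro, when the cells were proliferative, and at days 8, 10 and 12, when they were quiescent, for a total of 16 libraries in 8 groups. The labels give the letter I to both replicate 1 lines and L to both replicate 2 lines, without saying what the letters mark. The sources used here do not give the embryo or body part behind each line. Each genotype was represented by 2 lines, and the day 2 and quiescent harvests of a line were repeat harvests of that line.

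Library totals ran from 28079241 to 61039793 counts, of which 8517 to 22156 fell on Hox genes, and a count of 3 was worth 0.0491 to 0.107 CPM (a library's counts scaled to a common total, adjusted between libraries by TMM). As a check of the labels, Plagl1 itself stood between 37.9 and 230 CPM in the 8 wildtype libraries and between 7.68 and 60.0 CPM in the 8 mutant libraries. Within each day every mutant library was below both wildtype libraries. The fibroblast markers summed to 22378 to 25621 CPM in proliferation and 48500 to 58648 CPM at quiescence. Markers of other cells were lower, with macrophage and blood markers at 30.9 to 258 CPM, cartilage markers at 129 to 454 CPM and epithelial markers at 9.17 to 12.2 CPM in the quiescent lines. In bulk RNA, fewer cells of a type and less RNA per cell cannot be told apart. Wildtype replicate 1 stood apart from the other 3 lines in its Hox pattern, so the results that rest on it are also given without it.

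Of the 39 genes, 35 had enough counts to be tested. Hoxd12 was at 0 in all 16 libraries, and 3 counts over all of them would be 0.00382 CPM. Hoxb1 had 3 counts in total, Hoxb13 had 10 and Hoxd1 had 28. These 4 genes were therefore near or below detection in these cells. Per length (CPM per kilobase of the gene's longest curated transcript), Hoxc8 had the highest mean in both states, at 18.5 ± 4.37 in proliferation and 19.7 ± 2.38 at quiescence (mean ± SD, n = 4 lines). It did not lead in every line. In proliferation Hoxb9 was higher in wildtype replicate 1 (17.7 against 14.3) and mutant replicate 1 (18.8 against 16.2). At quiescence Hoxc6 was higher in wildtype replicate 1 (23.1 against 21.8). Hoxa10 was higher in wildtype replicate 2 (26.7 against 18.1) and mutant replicate 1 (19.8 against 17.2). Hoxa10, a gene of hindlimb and reproductive tract patterning, was the highest Hoxa gene at quiescence with 19.3 ± 7.13 CPM per kilobase. Hoxb9 led the Hoxb cluster at 12.3 ± 2.86, and Hoxd8 led the Hoxd cluster at 1.84 ± 0.439 CPM per kilobase. The summed Hox level per length was 159 ± 17.1 CPM per kilobase in proliferation and 165 ± 5.28 at quiescence (n = 4 lines). The quiescent lines, from 159 to 171, lay within the range of the proliferative lines, from 146 to 182 CPM per kilobase.

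The Hoxa cluster had a larger share of the Hox output at quiescence and the Hoxb cluster a smaller one. The Hoxa share of the summed level per length was 25.0 ± 1.44% in proliferation and 33.8 ± 5.67% at quiescence. In wildtype replicate 1 it was 23.9% and 25.9%. On the mean of the 4 lines, most of the Hoxa gain lay in 1 gene. The cluster summed to 40.0 ± 6.51 and then 55.7 ± 8.86 CPM per kilobase, and Hoxa10 alone was at 6.11 ± 0.371 and 19.3 ± 7.13. This did not hold in wildtype replicate 1, where the cluster went from 34.9 to 44.3 and Hoxa10 from 6.03 to 9.60 CPM per kilobase. The Hoxb share was 36.1 ± 2.67% and then 24.0 ± 5.16%. The Hoxc share was 36.2 ± 1.77% and 38.9 ± 0.658%, and the Hoxd share stayed small at 2.73 ± 0.451% and 3.28 ± 0.931% (mean ± SD, n = 4 lines each). Paralog number 10, that is Hoxa10, Hoxc10 and Hoxd10, took 9.91 ± 0.647% in proliferation and 20.2 ± 6.92% at quiescence, with the 4 lines between 10.5% and 26.8%. Wildtype replicate 1 held the 10.5%.

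**Figure D1:**
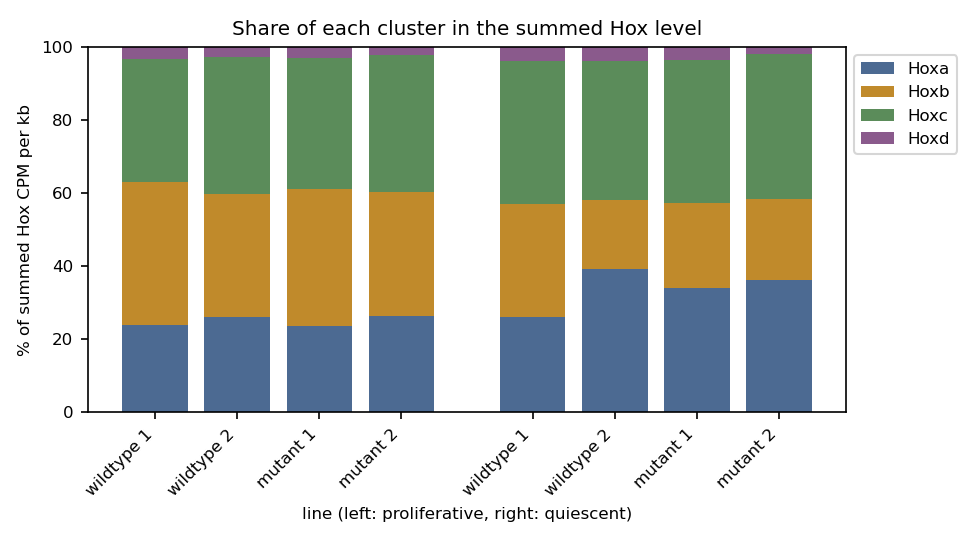
Stacked bars of the share of each Hox cluster in the summed Hox level (percent of CPM per kilobase, y axis) in each of the 4 lines in proliferation (left) and at quiescence (right, days 8, 10 and 12 summed). The Hoxb share is lower at quiescence in all 4 lines, and the Hoxa share is 25.9% in wildtype replicate 1 at quiescence against up to 39.1% in the other lines.

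The comparison of quiescent with proliferative cells asked how the Hox genes differ between the 2 states. All proliferative libraries were from day 2 and all quiescent ones from days 8 to 12, so leaving the cell cycle and time in culture cannot be told apart. Averaged over both genotypes, 16 of 35 Hox genes passed the test (edgeR quasi-likelihood, Benjamini-Hochberg adjusted p under 0.05 over all genes), against 59.3% of all 15740 genes tested. Of these, 5 rose (Hoxa9, Hoxa10, Hoxa13, Hoxd3 and Hoxd8) and 11 fell, where 30.9% of all genes rose and 28.5% fell. Those that fell included Hoxa4, Hoxb2, Hoxb5 to Hoxb9, Hoxc5, Hoxc11 and Hoxd13. The median log2 change was -0.08 for the Hox genes and 0.06 for all genes, and 21 of 35 Hox genes were below 0 (46.8% of all genes). Quiescent levels were higher in all 4 lines for 6 Hox genes (37.1% of all genes) and lower in all 4 for 13 (31.6%). By cluster, Hoxa had 3 rising and 2 falling genes of 11, Hoxb 0 and 6 of 8, Hoxc 0 and 2 of 9, and Hoxd 2 and 1 of 7. Within Hoxa 2 of 4 anterior genes fell, 0 of 3 central genes passed and 3 of 4 posterior genes rose (median log2 1.31). In Hoxb all 8 tested genes had values below 0, with a median of -0.59. The median of the Hox genes depended on single lines. It was -0.30 without wildtype replicate 1, 0.06 without wildtype replicate 2, -0.26 without mutant replicate 1 and -0.01 without mutant replicate 2. The call of Hoxb5 was lost with upper-quartile scaling, with limma-voom and with the filter at 1 CPM. Single genes, among them Hoxa4, Hoxb5 and Hoxc5, also lost their call with a line left out, and others are given below. The fits with a line left out had 2 residual degrees of freedom in place of 4, so a lost call need not mean a smaller change.

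**Figure D2:**
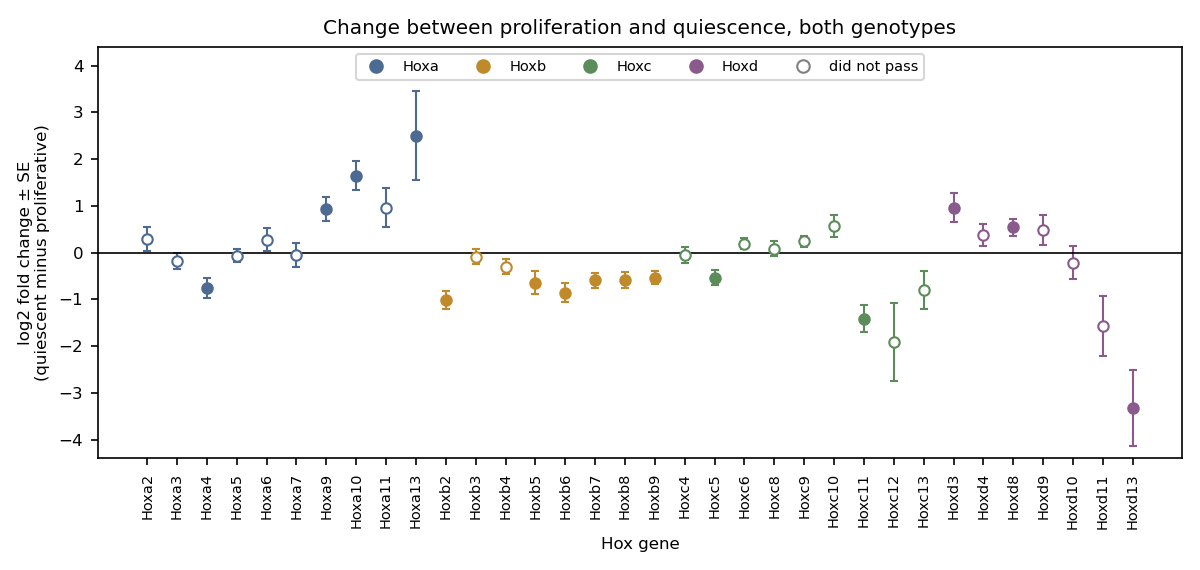
Fitted log2 fold change between quiescence and proliferation with its standard error (y axis) for 34 of the 35 tested Hox genes in order of cluster and paralog number (x axis), with filled points for genes that passed the test. The 8 Hoxb genes lie below 0, while Hoxa9 to Hoxa13 lie above it, and the wide bars of Hoxa13, Hoxc12, Hoxd11 and Hoxd13 belong to genes with few counts.

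Among the posterior Hoxa genes, Hoxa10 (NCBI gene 15395) had the clearest rise. In proliferation it was at 15.5, 16.8, 14.5 and 15.9 CPM in wildtype replicates 1 and 2 and mutant replicates 1 and 2, and at quiescence at 24.6, 68.6, 50.8 and 54.0 CPM. All 12 quiescent libraries were above all 4 of day 2, which was true of 19.4% of all genes, and of no other Hox gene. It rose 3.14-fold (log2 1.65, SE 0.31, edgeR adjusted p = 0.00484). The rise was 0.67 on the log2 scale in wildtype replicate 1 and 1.76 to 2.03 in the other 3 lines. Hoxa9, a close neighbour with roles in blood and limb, was at 2.88, 6.12, 4.63 and 6.08 CPM in proliferation and 6.71, 11.5, 9.50 and 10.3 CPM at quiescence in the same order. It was higher at quiescence in all 4 lines and rose 1.91-fold (log2 0.94, SE 0.25, edgeR adjusted p = 0.0112). Without mutant replicate 1 or mutant replicate 2 neither gene passed (Hoxa10 log2 1.63 and 1.66, adjusted p = 0.140 and 0.141; Hoxa9 log2 0.86 and 1.01, adjusted p = 0.134 and 0.0986).

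Hoxa11, which acts in the middle segment of the limb, was at 7.35, 9.68, 7.44 and 7.82 CPM in proliferation and 6.22, 24.5, 18.2 and 14.4 CPM at quiescence. It was lower at quiescence in wildtype replicate 1 and higher in the other 3 lines, and it did not pass (log2 0.96, edgeR adjusted p = 0.0979). With the line as a block it passed (log2 0.82, edgeR adjusted p = 0.00928), and it also passed without wildtype replicate 1 (log2 1.20). Over all alternatives its adjusted p ran from 3.28e-04 to 0.468. Its row overlaps that of the antisense Hoxa11os, and since the sources used here do not give the strand setting of the counting, reads of the 2 genes cannot be fully told apart. Hoxc10 was at 14.3, 17.3, 17.0 and 18.1 CPM and then 14.6, 32.1, 29.5 and 23.8 CPM, higher at quiescence in all 4 lines but hardly so in wildtype replicate 1. It did not pass (log2 0.58, edgeR adjusted p = 0.0637), but passed with the line as a block (log2 0.53, edgeR adjusted p = 0.00620), with DESeq2, with upper-quartile scaling, with the filter at 1 CPM and without wildtype replicate 1 (adjusted p from 0.00220 to 0.421 over all alternatives). Hoxa13, the gene at the 5′ end of the cluster, which patterns digits and the genital region, had only 8 counts at day 2 and 147 at quiescence over the 4 lines, a ratio of 5.48 per read (95% exact counting interval 2.71 to 12.9, counting error only). It passed (edgeR adjusted p = 0.0449) but not with the line as a block (adjusted p = 0.0516), with limma-voom (adjusted p = 0.113) or without wildtype replicate 2, mutant replicate 1 or mutant replicate 2, and wildtype replicate 1 was at 0.0581 CPM in proliferation and 0.0455 CPM at quiescence. Without wildtype replicate 2 its log2 value was 0.74 (adjusted p = 0.534).

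Among the falling genes, Hoxb2, a gene of hindbrain patterning (NCBI gene 103889), was at 10.0, 7.78, 8.05 and 8.71 CPM in proliferation and 5.66, 3.26, 3.85 and 4.34 CPM at quiescence, so the groups did not overlap. It fell 2.02-fold (log2 -1.02, SE 0.19, edgeR adjusted p = 0.00111). In 4 Hox genes, among them Hoxb2, Hoxa4 and Hoxc11, the 12 quiescent libraries all lay below the 4 of day 2, against 21.5% of all genes. Hoxc11, a posterior gene, was at 1.25, 1.48, 1.98 and 1.30 CPM and then 0.514, 0.499, 0.774 and 0.478 CPM. It fell 2.65-fold (log2 -1.41, SE 0.29, edgeR adjusted p = 0.00209).

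In the central part of the Hoxb cluster 4 of 4 genes fell (median log2 -0.62), and so did Hoxb9, its 1 tested posterior gene, while 1 of 3 tested anterior genes fell. The call of Hoxb5, 1 of the 4 central genes, was not kept with every setting, as given above. Hoxb8 was at 13.54, 15.61, 13.04 and 14.73 CPM in proliferation and 13.01, 7.397, 8.788 and 8.874 CPM at quiescence, and fell (log2 -0.59, SE 0.17, edgeR adjusted p = 0.0128). Without wildtype replicate 2 or mutant replicate 2 it did not pass. Hoxb6, a gene of trunk identity, was at 8.08, 8.07, 6.97 and 9.98 CPM in proliferation and 6.51, 3.54, 4.53 and 3.89 CPM at quiescence, and fell 1.81-fold (log2 -0.85, SE 0.20, edgeR adjusted p = 0.00511). Hoxb9 (NCBI gene 15417), which acts in the thoracic skeleton, was at 45.7, 44.5, 48.3 and 43.1 CPM and then 42.2, 25.3, 30.1 and 28.6 CPM. It fell 1.45-fold (log2 -0.53, SE 0.15, edgeR adjusted p = 0.0112), with a fall of only 0.11 on the log2 scale in wildtype replicate 1 and of 0.59 to 0.81 in the other lines. It did not pass without mutant replicate 1 or mutant replicate 2 (adjusted p = 0.0879 and 0.0797). Hoxd13, a gene of digits and external genitalia, had 40 counts in proliferation and 17 at quiescence, a ratio of 0.127 per read (95% exact counting interval 0.0674 to 0.229). It passed (edgeR adjusted p = 0.00570), but not without wildtype replicate 2 (adjusted p = 0.196) or mutant replicate 1 (adjusted p = 0.0512). Epithelial markers summed to 55.5 to 68.9 CPM in proliferation and 9.17 to 12.2 CPM at quiescence, endothelial ones to 14.6 to 19.2 and 3.21 to 5.92 CPM, and neural ones to 393.9 to 461 and 106 to 157 CPM. The sums hide markers that went the other way. Of 5 tested epithelial markers 4 fell and 1 rose, and of 4 endothelial markers 2 fell and 1 rose. Of 5 neural markers 3 fell and 0 rose, with 2 above 0. Among all genes 28.5% fell and 30.9% rose. The part of other cell types in the falls was not tested.

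In the Hoxd cluster 1 of 2 tested anterior genes and the single central gene rose. Hoxd3, a gene of the neck vertebrae, was at 0.872, 0.622, 0.970 and 1.11 CPM in proliferation and 2.75, 1.75, 1.76 and 0.859 CPM at quiescence. It rose 1.94-fold (log2 0.96, SE 0.31, edgeR adjusted p = 0.0215), higher in 3 lines and lower in mutant replicate 2. Hoxd8 was at 3.75, 3.29, 2.80 and 3.27 CPM and then 6.08, 4.94, 5.05 and 3.29 CPM, and rose 1.46-fold (log2 0.55, SE 0.18, edgeR adjusted p = 0.0270). Neither passed with limma-voom, nor without wildtype replicate 1, wildtype replicate 2 or mutant replicate 1 (Hoxd3 log2 0.60 to 0.96, Hoxd8 log2 0.32 to 0.55).

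The sequences before the start sites are printed for the rising Hoxa9 and Hoxa10 and for Hoxb8, a falling gene whose window holds a motif searched for. Hoxb8 was chosen after its values were seen, and other genes without a window here, such as Hoxc11 and Hoxb2, fell more. Hoxd13 also fell more, and its window, not printed, holds neither motif. They are the 250 bases before the annotated start, from RefSeq on GRCm38.p6, which is not the build of the counts (mm9), and the windows shown hold no annotated exon. Of the 39 genes, 22 had such a window (24 windows, since Hoxa10 and Hoxd11 have 2 starts each). Capitals mark the letters TGATNNAT, the sequence that PBX and HOX proteins bind together, searched on both strands. It was present in 4 of the 24 windows and in 7.68% of 32851 windows of all genes, and of the printed windows in Hoxb8 alone. The other windows with a match were of Hoxa2 and Hoxd11, which did not pass between states, and of Hoxb1, which was not tested. GGGGCCCC, a sequence bound by PLAGL1, was in 0 of 24 and in 0.889% of all windows, searched in the same way. A match is a description of these letters and not a bound site. The windows are Hoxa9 at chr6:52227371-52227620, minus strand, the outer Hoxa10 start at chr6:52240855-52241104, minus strand, the inner Hoxa10 start at chr6:52234940-52235189, minus strand, and Hoxb8 at chr11:96281655-96281904, plus strand.
Hoxa9: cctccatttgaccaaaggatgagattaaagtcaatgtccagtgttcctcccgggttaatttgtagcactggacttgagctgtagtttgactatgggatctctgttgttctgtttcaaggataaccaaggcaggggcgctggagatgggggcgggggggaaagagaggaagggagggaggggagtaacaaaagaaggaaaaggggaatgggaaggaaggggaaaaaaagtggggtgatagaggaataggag
Hoxa10 outer start: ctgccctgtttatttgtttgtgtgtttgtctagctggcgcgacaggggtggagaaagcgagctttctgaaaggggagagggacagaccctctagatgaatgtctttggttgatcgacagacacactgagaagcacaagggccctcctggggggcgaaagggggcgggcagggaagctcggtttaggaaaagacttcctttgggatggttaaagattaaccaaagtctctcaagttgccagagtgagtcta
Hoxa10 inner start: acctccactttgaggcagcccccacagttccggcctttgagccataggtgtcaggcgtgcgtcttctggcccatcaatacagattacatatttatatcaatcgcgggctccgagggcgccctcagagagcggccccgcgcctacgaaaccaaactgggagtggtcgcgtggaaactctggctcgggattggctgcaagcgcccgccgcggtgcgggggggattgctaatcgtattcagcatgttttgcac
Hoxb8: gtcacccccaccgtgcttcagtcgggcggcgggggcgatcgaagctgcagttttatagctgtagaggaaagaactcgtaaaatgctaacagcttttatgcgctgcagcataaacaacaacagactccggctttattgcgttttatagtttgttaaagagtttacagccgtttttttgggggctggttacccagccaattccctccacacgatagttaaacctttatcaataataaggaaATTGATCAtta

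Within wildtype cells 6 of 35 Hox genes passed between states (47.6% of all genes, 23.9% rising and 23.7% falling), with Hoxa9, Hoxa10 and Hoxd3 rising and Hoxb2 and Hoxc11 among those falling. In mutant cells 8 of 35 passed (42.1% of all genes, 21.1% rising and 21.0% falling), with Hoxa10 rising and Hoxb2, Hoxb6, Hoxb7, Hoxb9, Hoxc11 and Hoxd13 among those falling. With the line as a block, 10 of 35 passed in wildtype (4 rising, 6 falling), beside 7472 of all 15740 genes. In mutant cells 13 of 35 passed (4 rising, 9 falling), beside 6633 of all 15740 genes. The difference between the genotypes in this response was tested directly, and 0 of 35 Hox genes passed (edgeR, 0.00% of all genes, 0 Hox genes at an unadjusted p under 0.05, 0 calls with DESeq2 and limma-voom). With all lines the median log2 change of the Hox genes was 0.01 in wildtype and -0.26 in mutant cells. In wildtype cells it was -0.40 without wildtype replicate 1 and -0.01 without wildtype replicate 2. In mutant cells it was -0.53 without mutant replicate 1 and 0.05 without mutant replicate 2.

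**Figure D3:**
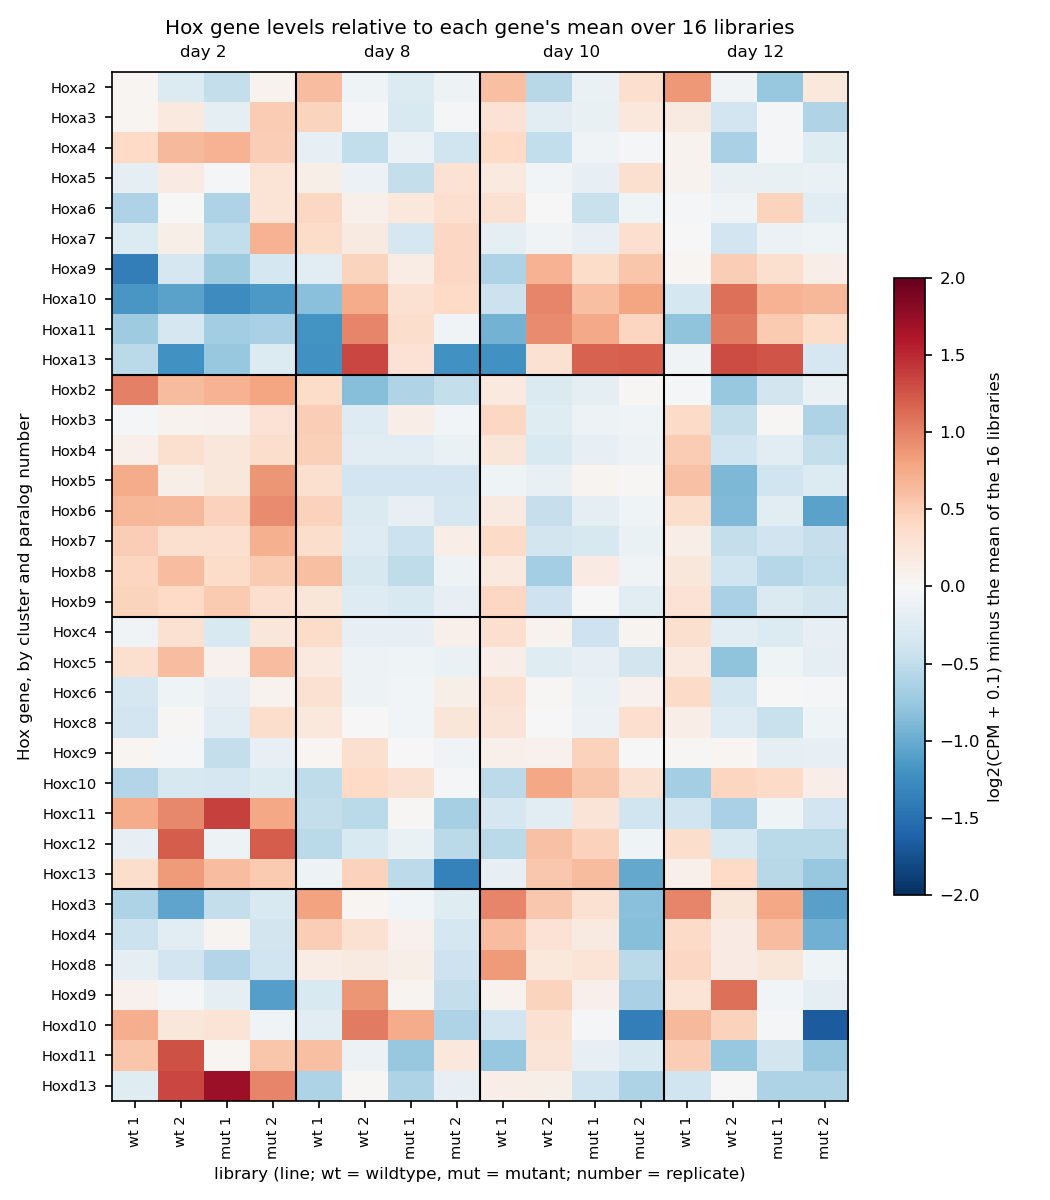
Heat map of 34 of the 35 tested Hox genes (rows, by cluster and paralog number) in the 16 libraries (columns, by day and line), coloured by log2(CPM + 0.1) minus the gene's mean over the 16 libraries. Day 2 stands out in Hoxb2 and Hoxc11 (high) and in Hoxa10 (low), and within days 8 to 12 wildtype replicate 1 is low for Hoxa9, Hoxa10, Hoxa11 and Hoxc10 and high for much of Hoxb.

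The lines themselves differed in their Hox pattern, and more so at quiescence. Among the 29 Hox genes with a mean of at least 1 CPM, the highest line was at least 2-fold above the lowest for 3 in proliferation (Hoxa7, Hoxa9 and Hoxd9, against 4.42% of all such genes) and for 8 at quiescence (5.10% of all such genes). The 8 were Hoxa2, Hoxa10, Hoxa11, Hoxc10, Hoxd3, Hoxd4, Hoxd9 and Hoxd10. The median ratio of highest to lowest line went from 1.41 to 1.67 for Hox genes and from 1.27 to 1.17 for all genes. These ratios are descriptions of 4 lines and carry no test.

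Wildtype replicate 1 was the line farthest from the rest. Its 3 quiescent harvests all lay above the 9 of the other lines for 11 of 35 Hox genes (Hoxa2, Hoxb3, Hoxb4, Hoxb6 to Hoxb9, Hoxc4 to Hoxc6 and Hoxd3), against 1.97% of all genes. They all lay below for 4 (Hoxa9, Hoxa10, Hoxa11 and Hoxc10), against 1.97% of all genes. The genes above were anterior or central apart from Hoxb9, and the genes below were all posterior. For the other lines the counts were 2 above and 1 below in wildtype replicate 2 (0.324% and 0.362% of all genes), 1 and 1 in mutant replicate 1 (0.781% and 0.712%) and 0 and 5 in mutant replicate 2 (2.04% and 1.40%). The 5 were Hoxc13, Hoxd3, Hoxd4, Hoxd8 and Hoxd10, of which 4 are in Hoxd.

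Of the 8 limb position genes, 3 (Tbx4, Pitx1 and Lmx1b) were lower in the 3 quiescent harvests of wildtype replicate 1 than in the 9 of the other lines, and Hand2 was highest in those of mutant replicate 1. Tbx4, a hindlimb transcription factor gene, was at 10.4, 38.0, 35.1 and 35.6 CPM at quiescence, lowest in wildtype replicate 1. Pitx1, which lies upstream of Tbx4 in the hindlimb, was at 5.72, 35.0, 35.1 and 25.0 CPM. The forelimb gene Tbx5 was at 5.06, 7.97, 6.89 and 4.12 CPM, with mutant replicate 2 the lowest. The cofactor Meis1, by contrast, was at 51.5, 27.6, 32.1 and 29.6 CPM and highest in wildtype replicate 1. Their part in the Hox pattern was not tested.

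**Figure D4:**
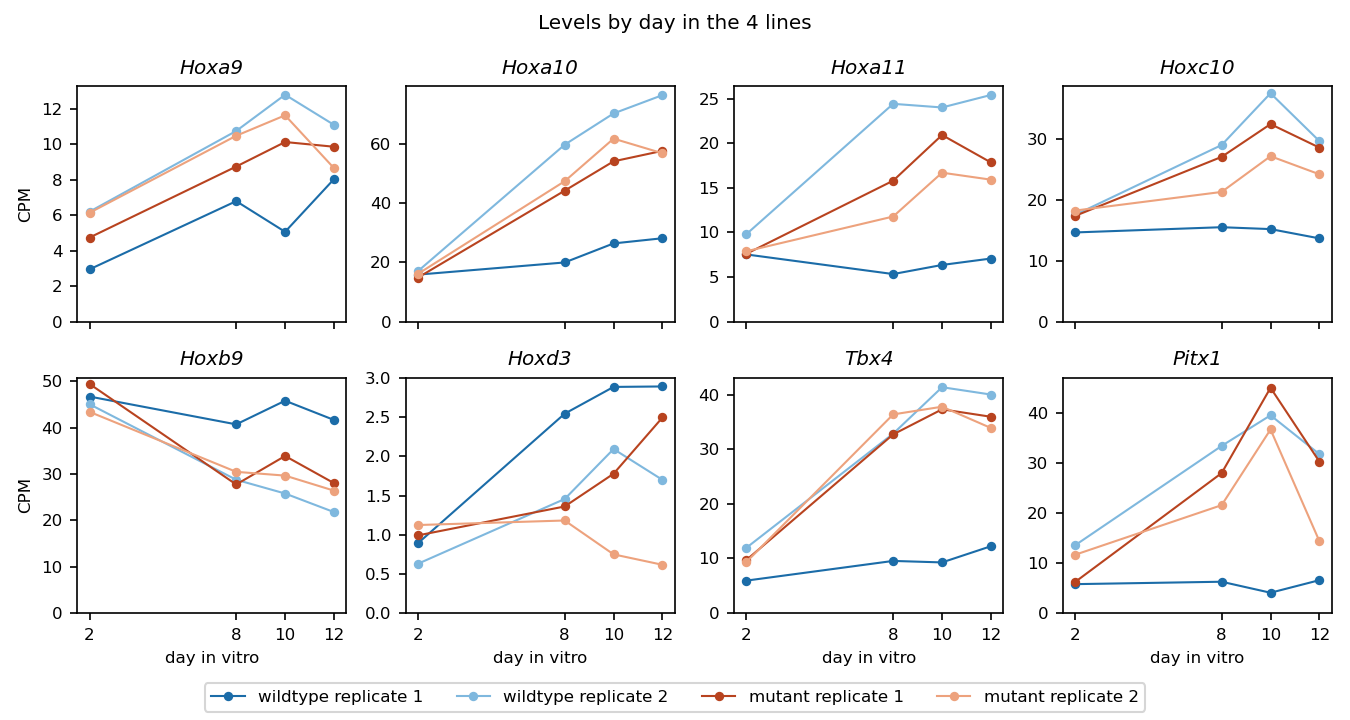
CPM (y axes, each from 0) of 6 Hox genes and of the hindlimb genes Tbx4 and Pitx1 at days 2, 8, 10 and 12 (x axis), 1 line of points per cell line. At day 12 Hoxa10 is at 28.1 CPM in wildtype replicate 1 and between 56.7 and 76.3 CPM in the other lines, and Tbx4 is at 12.2 CPM against 33.9 to 40.0 CPM.

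The lines with the letter L were also compared with those with the letter I. Between set L and set I, 0 of 35 Hox genes passed (edgeR, 0.159% of all genes, 0.0762% higher and 0.0826% lower, 2 at an unadjusted p under 0.05, 0 with DESeq2 and limma-voom). The smallest p belonged to Hoxa9 (log2 0.58, SE 0.16, edgeR adjusted p = 0.283) and then Hoxa7 (log2 0.46, SE 0.19, adjusted p = 0.615), with Hoxb9 (-0.26) and Hoxd3 (-0.53) next. In proliferation Hoxa7 was at 11.7 and 15.4 CPM in the wildtype lines and 9.99 and 23.3 CPM in the mutant lines. With a mutant line left out, only the 2 wildtype lines compared the letters, and with a wildtype line left out only the 2 mutant lines did. Each such fit compared 1 line with 1 line, with 1 residual degree of freedom, so its calls are not given as differences between the sets. The fit with all lines took the day 2 and quiescent sums of a line as separate samples, although only 2 lines carry each letter. The quiescent sums alone, with the replicate number as a block, gave 0 calls among 32 Hox genes.

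The comparison of mutant with wildtype cells asked whether the Hox genes depend on Zac1. At quiescence 0 of 35 Hox genes passed (edgeR, 0.00635% of all genes, which is Plagl1 alone), 0 had an unadjusted p under 0.05, and DESeq2 and limma-voom called 0. Plagl1 was lower in mutant cells by log2 -1.88 (SE 0.15, edgeR adjusted p = 0.00297). The smallest p among the Hox genes belonged to Hoxd3 (log2 -0.77, SE 0.41), Hoxd9 (-0.71, SE 0.43) and Hoxd4 (-0.52, SE 0.32), each with an edgeR adjusted p of 1.00. Hoxd9 was at 1.29, 2.30, 1.31 and 0.873 CPM, and Hoxd4 at 4.78, 4.06, 4.07 and 2.07 CPM, so mutant replicate 2 was the lowest line for both. Both mutant lines lay below both wildtype lines for 2 genes of few counts, Hoxd11 and Hoxd13 (11.2% of all genes), and above for 0 (11.6%).

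The direction of the genotype values depended on 1 wildtype line. With all lines, 26 of 35 Hox genes were below 0 in mutant cells (45.2% of all genes), among them all 8 Hoxb and all 7 Hoxd genes, and the median was -0.19 against 0.01 for all genes. Without wildtype replicate 1, 17 of 36 were below 0 and the median was 0.07. All 8 Hoxb genes then changed sign, from a median of -0.20 to 0.25, and Hoxb9 went from -0.19 to 0.22. The Hoxd genes stayed below 0 in 8 of 8, with medians of -0.71 and -0.63. Their median was -0.35 without mutant replicate 2 and -1.23 without mutant replicate 1, and that of the Hoxb genes was -0.53 without wildtype replicate 2. Hoxa10 went from 0.18 to -0.38.

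**Figure D5:**
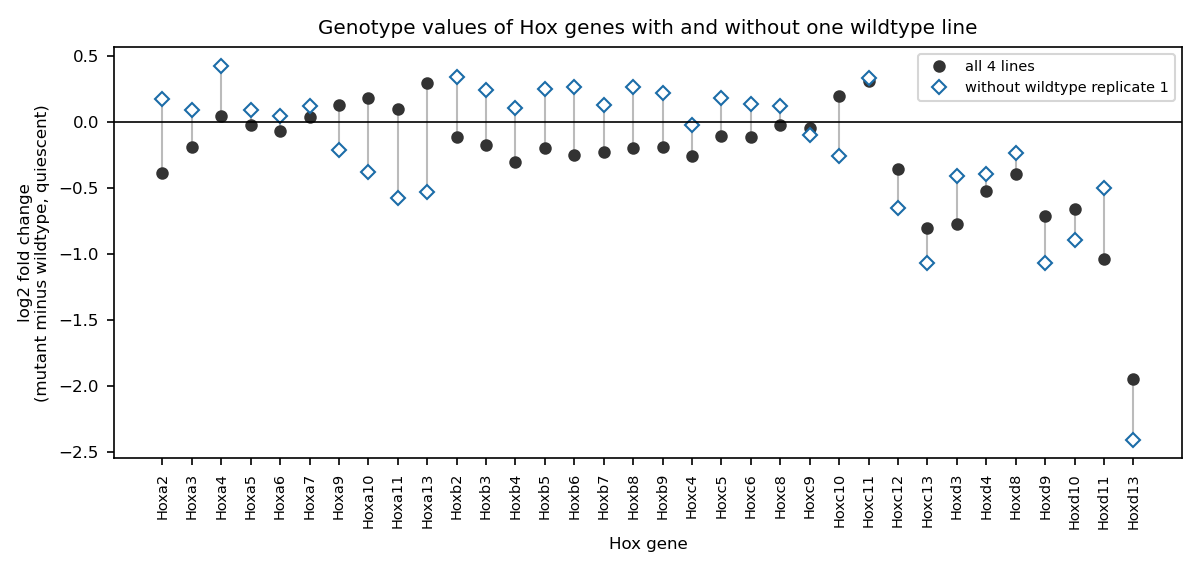
Fitted log2 difference between mutant and wildtype cells at quiescence (y axis) for 34 of the 35 tested Hox genes (x axis), with all 4 lines (filled) and without wildtype replicate 1 (open diamonds). All 8 Hoxb genes lie below 0 with that line and above 0 without it, and the Hoxd genes lie below 0 both ways. No gene passed the test in either fit.

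In proliferation 0 of 35 Hox genes passed between the genotypes (edgeR, 0.00635% of all genes, 0 at an unadjusted p under 0.05, 0 with DESeq2 and limma-voom). The smallest p belonged to Hoxc9 (log2 -0.31, SE 0.18), Hoxd9 (-0.69, SE 0.47) and Hoxc8 (0.27, SE 0.22), each with an edgeR adjusted p of 1.00. Hoxc9 was at 8.02 and 7.75 CPM in the wildtype lines and 5.60 and 7.07 CPM in the mutant lines. Hoxc8, a gene of the lower thorax, was at 26.8 and 35.9 CPM and then 30.3 and 45.5 CPM, with overlap between the groups. Both mutant lines lay below both wildtype lines for 3 genes (Hoxc9, Hoxd8 and Hoxd9, 11.4% of all genes) and above for 1 (Hoxd3, 12.4%). Below 0 were 14 of 35 Hox genes (49.1% of all genes), and 22 of 35 without mutant replicate 2. For the difference of the genotypes in the quiescence response, the smallest p belonged to Hoxd3 (log2 -1.27, SE 0.61, unadjusted p = 0.0661), Hoxd13 and Hoxd4 (-0.70, SE 0.47), with edgeR adjusted p of 1.00. Hoxd13 had only 3 counts in the quiescent mutant lines. In this difference 29 of 35 Hox genes were below 0 (48.0% of all genes), against 17 of 36 without wildtype replicate 1 and 17 of 35 without mutant replicate 2.

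Within quiescence, 0 of 34 tested Hox genes passed between day 12 and day 8 (edgeR, 3.12% of all 15439 genes, 1.12% higher and 2.00% lower, 0 at an unadjusted p under 0.05, 0 with DESeq2 and limma-voom). The smallest p belonged to Hoxc8 (log2 -0.24, SE 0.16, edgeR adjusted p = 0.571) and Hoxa7 (-0.31, SE 0.24, edgeR adjusted p = 0.646). Hoxc8 was at 41.3, 35.8, 34.5 and 42.3 CPM at day 8 and 39.4, 29.9, 26.4 and 33.8 CPM at day 12, lower in all 4 lines. Hoxa10 was at 19.9, 59.6, 44.1 and 47.3 CPM at day 8 and 28.1, 76.3, 57.6 and 56.7 CPM at day 12, higher in all 4 lines. That fit treated the harvests of a line as if they were separate lines. With the line as a block, Hoxc8 (log2 -0.25, edgeR unadjusted p = 0.0467, adjusted p = 0.267) and Hoxa10 (log2 0.38, edgeR unadjusted p = 0.0486, adjusted p = 0.273) were under an unadjusted 0.05, and 0 passed.

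The genes that work with or on the Hox clusters moved in several ways between the states, and their counts are set against the 30.9% of all 15740 genes that rose and the 28.5% that fell. Of 9 TALE cofactors, 5 rose and 0 fell (median log2 0.40). Pbx3 was at 17.0, 19.6, 17.8 and 20.0 CPM in proliferation and 30.7, 38.5, 32.4 and 36.8 CPM at quiescence, a 1.85-fold rise (log2 0.89, SE 0.10, edgeR adjusted p = 5.21e-05). Pknox2 rose 2.78-fold. Among 31 Polycomb genes, 12 rose and 13 fell (median 0.00). Ezh2, the methyltransferase of dividing cells, fell 2.99-fold from between 60.3 and 74.0 CPM to between 21.4 and 24.8 CPM (log2 -1.58, edgeR adjusted p = 4.20e-07), and its relative Ezh1 rose 1.72-fold. Of 12 Trithorax genes, 3 rose and 5 fell.

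Among axial and retinoid regulators, 8 of 16 tested genes rose and 2 fell (median log2 0.41), beside the same 30.9% and 28.5% of all genes. Crabp2, a retinoic acid carrier, rose 2.56-fold (log2 1.35, SE 0.19, edgeR adjusted p = 4.31e-04), and Cyp26b1, which degrades retinoic acid, fell 2.25-fold. The caudal genes Cdx1, Cdx2 and Cdx4 were at 0 counts in all lines. Of 7 tested limb position genes, 4 rose and 0 fell (median 0.67), where all genes had a median of 0.06. Tbx4 rose 3.19-fold (log2 1.67, SE 0.46, edgeR adjusted p = 0.0258). Of 12 tested noncoding and flanking genes of the clusters, 2 rose and 4 fell, again against 30.9% and 28.5% of all genes. The Hoxa11os row was at 1.76, 4.98, 3.92 and 4.21 CPM at quiescence, lowest in wildtype replicate 1 as Hoxa11 was.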

How the data were processed

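The authors deposited 1 table of raw counts (whole reads per gene, 23100 genes, 16 libraries). The labels' protocols name stranded libraries after DNase treatment. Tools in the submitters' processing notes were TopHat2 2.1.1 and Bowtie2 2.2.9 (alignment), HTSeq 0.6.1p1, bcl2fastq 2.18 and the build mm9. The sources used here do not give the annotation or the strand setting, and overlapping, antisense and near-identical genes are therefore uncertain.

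Counts of days 8, 10 and 12 were summed per line into 8 summed libraries. edgeR 4.0.16 (R 4.3.3, TMM, filterByExpr, robust quasi-likelihood test) fitted 4 groups over 15740 genes. The comparison of days used 16 libraries in 8 groups, with its own scaling factors. SE is the absolute log2 change over the square root of F. Genes were called at an adjusted p under 0.05. The fit was tested on simulated data. Lengths came from GENCODE for all 39 genes. Named were the genes with the smallest p in each comparison, the highest per length in each cluster and those at 0 counts, and others were named for a cluster or line after their values were seen. Members and lists were chosen with earlier results of these data known. No row lacked a gene name and 0 columns belonged to no sample. Hotair, Hottip and Haglr were on the list of noncoding and flanking genes but are not reported singly here. Some genes that met the naming rule are not reported here or drawn. Replicates are lines, so p-values measure the spread between these lines, and with 2 lines per genotype the exact permutation test has a smallest two-sided p of 0.333. States pair by line, since each line was harvested in both. The main fit had no term for the line and took both states of a line as separate samples, and the fit with the line as a block used the pairing. Alternatives were RLE and upper-quartile scaling, DESeq2 1.42.0, voom in limma 3.58.1, no filter or 1 CPM in 4 libraries, the replicate block and leaving out each line.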

Additional observations from a re-analysis of the deposited data

How the results depend on the processing

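The state comparison gave 16 calls with RLE (16 shared with the 16 reported), 16 with upper-quartile scaling (15 shared), 17 with DESeq2 (16 shared) and 13 with limma-voom (12 shared). Leaving out 1 line gave 9 to 16 calls over both genotypes (9 without wildtype replicate 2, 9 without mutant replicate 2), 4 to 10 in wildtype cells and 1 to 13 in mutant cells. A lone line in an arm was assumed to vary like the other groups. These fits had 2 residual degrees of freedom in place of 4, so a lost call need not mean a smaller change. With the line as a block there were 17 calls over both genotypes (15 shared), 10 in wildtype and 13 in mutant cells against 6 and 8 without it. Of all 15740 genes the block called 9306, 7472 and 6633 in the same order. It gave 0 Hox calls for the genotype difference in the response and for day 12 against day 8. For mutant against wildtype the block was the letter of the line, I or L, since a line has only 1 genotype, and it gave 0 calls in both states. For set L against set I, the quiescent sums alone, with the replicate block, gave 0 calls. Leaving out 1 line there left only the 2 lines of the other genotype to compare the letters. Of the results for single named genes, 257 kept their direction and side of the threshold, 4 gained a call, 21 lost it and 1 reversed: Hoxc8 between genotypes in proliferation was -0.05 without mutant replicate 2, and -0.05 to 0.52 over the lines left out. The cause was not tested.

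For genotypes, same-numbered lines did not deviate together over all genes (r = 0.0112 at quiescence and -0.0285 in proliferation over 15740 genes). Each r compares a single pair of lines per genotype, so it does not show whether lines of the same letter share differences in some genes. With 2 lines per genotype, a p that misses the threshold does not show that Hox levels were alike. Genes under 3 counts per library, 0.0491 to 0.107 CPM, were not detectable at this depth.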
